A study of Mus musculus with 4 samples.

Results

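Libraries of mouse striatum were set against each other by how strongly they carried 4 activity-regulated transcripts, Fos, Junb, Egr1 and Arc. Each library received a score, the mean of log2(normalised read count + 1) over these 4 genes. Within each group of the study, the libraries above the group's median score formed the high set and those below it the low set. This gave 22 high and 22 low libraries of 46 in all, with 2 libraries that sat exactly at their group's median left out. The sets were selected on measured values and are not groups of the study, so a high library is high only relative to its own group. The question was which other transcripts differ between libraries that differ in these 4.

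The libraries came from 8-week-old C57BL/6 mice, either homozygous for a humanised allele of the transcription factor gene Foxp2 (Foxp2hum/hum) or wild-type. Tissue was cut by laser capture from the dorsomedial striatum (DMS) or the dorsolateral striatum (DLS), and no treatment is given in the labels. The 4 groups were Foxp2hum/hum DMS and Foxp2hum/hum DLS with 6 high and 6 low libraries each, and wild-type DMS and wild-type DLS with 5 high and 5 low libraries each. The labels do not tie libraries to mice, so p-values measure the spread between libraries, and whether a DMS and a DLS library shared a mouse is not given. Library totals lay between 16.8 and 30.5 M reads in the high set and between 17.2 and 41 M reads in the low set. Library 72, of the wild-type DMS high set, stood apart with a size factor of 0.539 and 11.9% of its reads from mitochondrially encoded genes, and without it the counts given below were 142 higher and 26 lower genes. Medium spiny neurons, the main striatal neurons, were present in all libraries: the summed normalised count of their 12 shared markers lay between 111373 and 226189 in high libraries and between 109139 and 243126 in low libraries. In such bulk tissue, fewer cells of a type and less RNA per cell cannot be told apart.

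Immediate early genes are transcribed within minutes of synaptic or growth factor stimulation and need no new protein for it. Calcium and the MAP kinase cascade act on factors that already sit on their promoters, chiefly CREB at cAMP response elements and serum response factor with its ETS partner ELK1 at serum response elements. Many of the products are transcription factors (FOS and EGR proteins), others are feedback inhibitors of the same cascade (dual-specificity phosphatases, Sprouty proteins) or act at synapses (ARC). In the striatum they follow dopamine, glutamate and cortical input, and they also rise with handling and stress.

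The score differed most between libraries of Foxp2hum/hum mice. In the DMS of these mice it ran between 10.36 and 11.47 in the high set and between 8.32 and 10.33 in the low set, and in their DLS between 9.83 and 10.72 in the high set and between 7.95 and 9.73 in the low set. In wild-type DMS it ran between 10.45 and 10.85 in the high set and between 9.88 and 10.31 in the low set, and in wild-type DLS between 9.95 and 10.63 in the high set and between 8.68 and 9.78 in the low set. The gap between the mean scores of the sets was therefore 1.56 and 1.31 in the Foxp2hum/hum groups, and 0.55 and 0.76 in the wild-type groups, on the log2 scale. Some libraries lay close to the dividing line. In Foxp2hum/hum DMS the high library 27 (10.36) and the low library 80 (10.33) nearly coincided, and in wild-type DLS the low library 70 and the library at the median both rounded to 9.78.

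The 4 genes that made the split are given as a description only. Fos, which encodes the inducible partner of the AP-1 factor, lay on mm9 at chr12:86814840-86818223 and had 79.1, 226 and 835 normalised reads at the lowest, median and highest high library, against 7.64, 67.2 and 283 in low libraries. Junb, which encodes a JUN-family partner of FOS, had 600, 972 and 2212 in high libraries, against 220.3, 526.4 and 1044 in low libraries. Egr1, a zinc finger factor gene, had 4185, 5739 and 9025 in high libraries, against 1516, 3232 and 7071 in low libraries. Arc, whose product acts on AMPA receptor traffic at synapses, had 2078, 2790 and 5505 in high libraries, against 465, 1543 and 2567 in low libraries. Each gene had the higher median in the high set in 4 of 4 groups, and the sets still overlapped when the groups were pooled, since a single gene need not follow the mean of all 4.

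**Figure D1:**
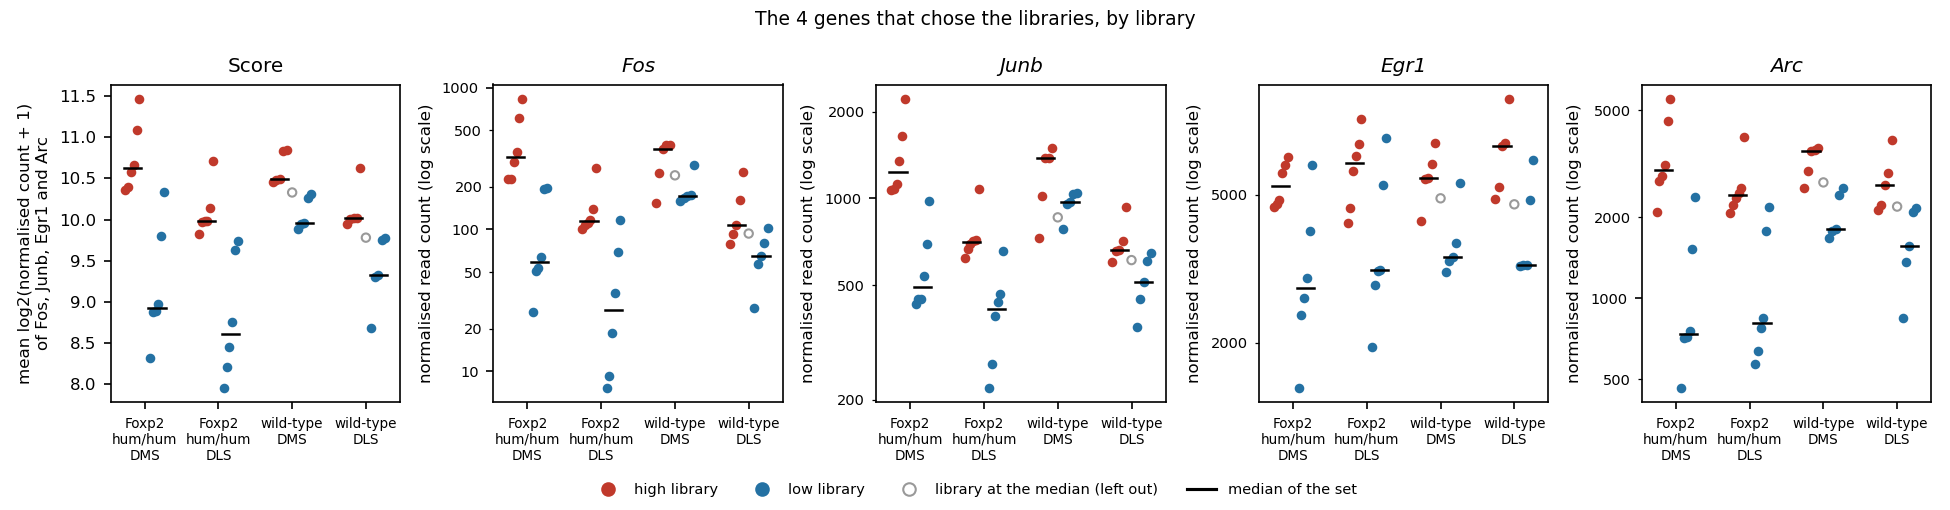
The score (left) and the normalised read count of Fos, Junb, Egr1 and Arc (log axes) for each library, by group, with high libraries in red to the left of low libraries in blue, the set median as a bar, and the 2 left-out libraries as open grey circles. The low libraries of the Foxp2hum/hum groups reach the lowest scores, 8.32 in DMS and 7.95 in DLS, while the wild-type DMS low libraries begin at 9.88.

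Over the remaining genes, 132 were higher and 22 were lower in the high libraries. Among the higher ones were the factor genes Nr4a1, Nr4a3, Egr2, Egr4, Klf2, Fosb and Fosl2, phosphatase and Sprouty genes that restrain MAP kinases (Dusp1, Dusp5, Dusp6, Spry2 and Spry4), Sgk1, Nptx2 and Vgf, and 5 of 12 tested genes of a glucocorticoid-induced list. The median size of the difference was log2 0.33 for the higher and 0.35 for the lower genes, and 29 of the 132 higher and 4 of the 22 lower genes differed by more than 1.5-fold. Of 19556 genes tested with limma on log2(normalised count + 1) with group as a block and Benjamini-Hochberg adjustment at 0.05, the higher calls were 0.675% and the lower calls 0.112%. The score genes and AC114820.1, a gene model that overlaps Egr1, were not tested. Other overlapping gene models were counted singly, so the called genes are not all separate. Gm16229, Gm12868 and Hdgfrp2, which overlap the called genes Nab2, Slc2a1 and Plin4, were called as well. Gm15459 and AC092404.1 had identical differences and p. The median difference of all tested genes was 0.00 on the log2 scale. Because libraries were sorted by expression, any gene that varies together with the score genes differs between the sets, and the tests say how closely, not why.

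Nr4a1 had the largest difference among the called genes. This gene (chr15:101097277-101105223 on mm9) encodes the orphan nuclear receptor NUR77, an immediate early factor. It had 1187, 2412 and 3767 normalised reads at the lowest, median and highest high library, against 209, 832 and 2826 in low libraries. The sets overlapped in 3 of 4 groups and were separate in wild-type DLS, and the low library with 2826 was library 80, the one just under the dividing line in Foxp2hum/hum DMS. The difference was 3.11-fold (log2 1.64 ± 0.19 SE, limma adjusted p = 1.09e-06). By group it was 1.62 in Foxp2hum/hum DMS, 2.07 in Foxp2hum/hum DLS, 1.16 in wild-type DMS and 1.62 in wild-type DLS on the log2 scale. Its relative Nr4a3 had 107, 311 and 908 in high libraries, against 40.9, 199 and 919 in low libraries, and was 2.03-fold higher (adjusted p = 0.0214). Nr4a2, the third of the family and a factor of dopamine neurons, had 8.84, 30.6 and 45 in high libraries, against 5.36, 22.6 and 258 in low libraries, a log2 difference of 0.05 ± 0.25 SE that did not pass (adjusted p = 0.977).

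The list of 25 fast immediate early transcription factors and regulators, none of them a score gene, had 24 members above the expression filter. Of these, 9 were higher, 0 lower and 15 did not pass, where 0.675% of all tested genes were higher. All 24 fitted differences were above 0, with a median of 0.31 against 0.00 over all genes. In 15 of the 24 (62.5%) the mean was higher in the high set of every group, which held for 11.96% of all tested genes. By edgeR and by DESeq2, 7 of the 24 were higher. Atf3 was not tested because of its low level. The list was drawn up with earlier results of these data known, so its share is a description.

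Among the EGR genes, 2 of 3 passed. Egr2 (chr10:66998223-67004936 on mm9), a zinc finger factor, had 48.6, 354 and 647 normalised reads in high libraries, against 20.7, 132 and 426 in low libraries. It was 2.29-fold higher (log2 1.2 ± 0.21 SE, adjusted p = 0.000575). Egr4 had 362, 798 and 1107 in high libraries, against 207, 433 and 717 in low libraries, and was 1.83-fold higher (adjusted p = 9.92e-05). Egr3 had 522, 962 and 1930 in high libraries, against 313, 823 and 1506 in low libraries, and did not pass (log2 0.27 ± 0.15 SE, adjusted p = 0.562). The sets of Egr2 were separate in wild-type DMS, and those of Egr3 overlapped in every group.

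Of the FOS relatives, Fosb had 78.7, 255 and 577 normalised reads in high libraries, against 43.5, 143 and 513 in low libraries, and was 1.83-fold higher (adjusted p = 0.0034). Fosl2, which encodes FRA2, had 153, 444 and 915 in high libraries, against 59.0, 196 and 935 in low libraries, and was 2.07-fold higher (adjusted p = 0.0158). Jun, the classic partner of FOS, had 131, 192 and 307 in high libraries, against 90.4, 210 and 283 in low libraries. Its log2 difference was 0.01 ± 0.10 SE (adjusted p = 0.992), and BC042782 overlaps it with 23.4% of its value. The edgeR and DESeq2 fits did not call Fosl2 (adjusted p = 0.0937 and 0.0577) or Nr4a3 (adjusted p = 0.107 and 0.0687), and neither passed with the mitochondrial share as a covariate (adjusted p = 0.0502 for Fosl2 and 0.0557 for Nr4a3).

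Of the Krüppel-like factor genes, Klf2 had 61.2, 116 and 221 normalised reads in high libraries, against 18.5, 52.8 and 122 in low libraries. It was 2.24-fold higher (log2 1.16 ± 0.17 SE, adjusted p = 5.61e-05). Klf4, at 30.4, 81.7 and 127 in high libraries, against 19.5, 52.0 and 110 in low libraries, did not pass (log2 0.65 ± 0.20 SE, adjusted p = 0.144). Klf6 (log2 0.08) and Klf10 (0.25) did not pass either. Sik1, a kinase gene that CREB induces and whose product restrains CREB's coactivators, had 168, 245 and 368 in high libraries, against 76.4, 156 and 302 in low libraries, and was 1.56-fold higher (adjusted p = 0.000572). Btg2, an antiproliferative gene, had 32.2, 118 and 286 in high libraries, against 13, 71.7 and 154 in low libraries, and was 1.58-fold higher (adjusted p = 0.035). Its call was lost in 8 of the 44 fits that left out a library.

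The remaining list members did not pass. Npas4, a factor gene induced by neuronal calcium alone, had 39.7, 116 and 837 normalised reads in high libraries, against 9.31, 130 and 479 in low libraries (log2 0.27 ± 0.37 SE, adjusted p = 0.889). Its difference had opposite signs by genotype: log2 1.05 in Foxp2hum/hum DMS, 1.07 in Foxp2hum/hum DLS, against -0.40 in wild-type DMS and -0.96 in wild-type DLS. The test of that difference between genotypes did not pass (log2 1.74, limma adjusted p = 1). Srf, which encodes serum response factor itself, had 864, 1115 and 1353 in high libraries, against 564, 987 and 1246 in low libraries (log2 0.18 ± 0.06 SE, adjusted p = 0.237), with Gm16736 overlapping it at 978% of its value. The others, Ier2, Ier3, Ier5, Csrnp1, Nfil3, Bhlhe40 and Maff, had differences between 0.01 and 0.42.

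**Figure D2:**
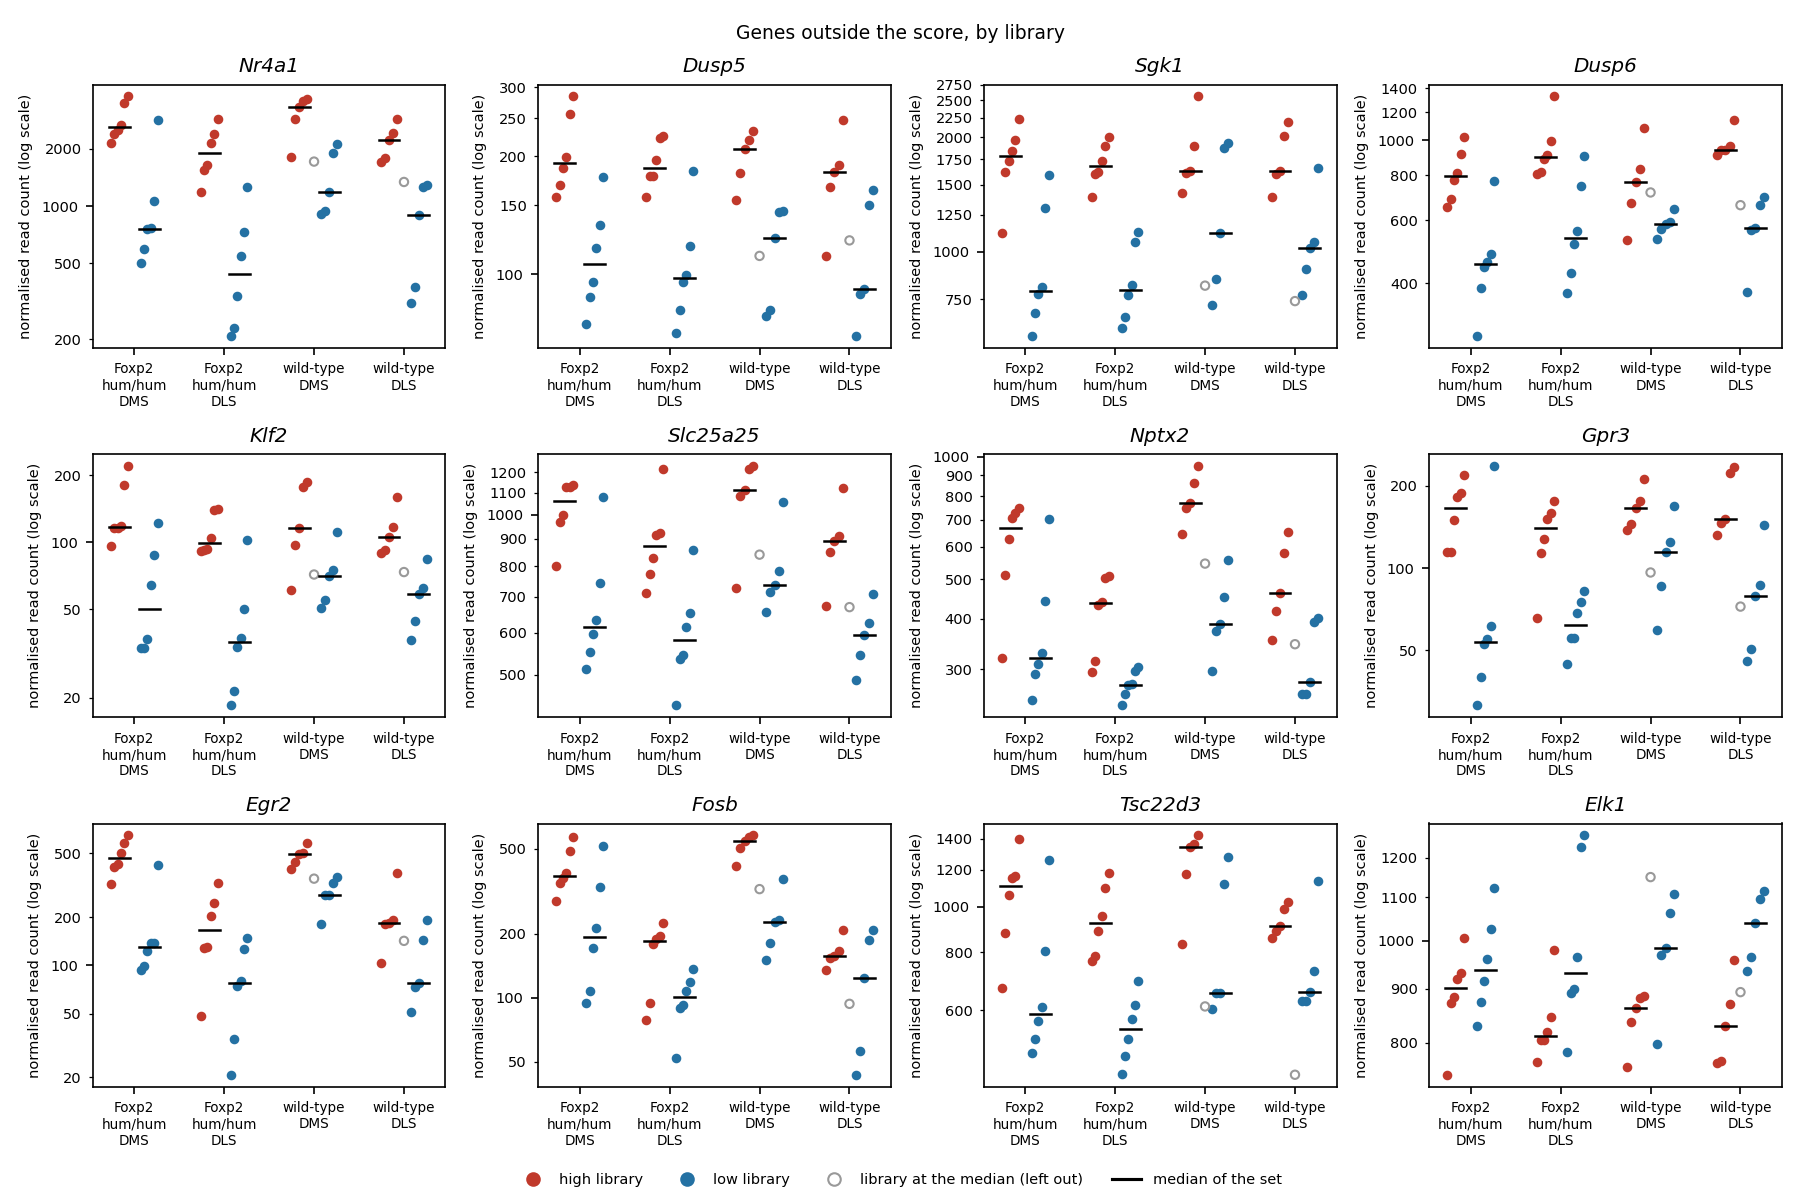
Normalised read counts (log axes) of 12 genes outside the score for each library, by group, high libraries in red to the left of low libraries in blue, with set medians as bars and the left-out libraries as open grey circles. The first 8 panels are the called genes with the smallest p, and in 11 of the 12 panels (all but Elk1) the high median is above the low median in 4 of 4 groups.

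The promoters of 7 of these genes are shown because CREB and serum response factor, the factors that drive the class, are known from fixed short elements near the start of transcription. Each window runs from 250 bases before to 50 after the RefSeq start on GRCm38.p6, in the direction of the gene. Elements outside the window were not searched for, so a window without a mark does not mean a gene without the element. Capitals mark TGACG, the core of the cAMP response element, or its reverse complement CGTCA, and in Egr2 also a CArG box, the serum response element.
Fos: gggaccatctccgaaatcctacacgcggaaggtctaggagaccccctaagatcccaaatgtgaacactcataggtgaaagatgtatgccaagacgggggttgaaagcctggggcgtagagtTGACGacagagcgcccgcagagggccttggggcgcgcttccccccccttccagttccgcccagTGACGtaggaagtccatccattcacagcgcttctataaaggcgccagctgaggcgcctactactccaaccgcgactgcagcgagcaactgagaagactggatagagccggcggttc
Junb: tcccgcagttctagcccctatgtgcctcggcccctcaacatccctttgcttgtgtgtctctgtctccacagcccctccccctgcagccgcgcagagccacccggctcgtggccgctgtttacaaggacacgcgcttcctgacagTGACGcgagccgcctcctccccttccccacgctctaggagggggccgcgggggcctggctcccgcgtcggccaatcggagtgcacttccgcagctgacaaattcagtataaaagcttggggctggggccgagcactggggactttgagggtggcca
Nr4a1: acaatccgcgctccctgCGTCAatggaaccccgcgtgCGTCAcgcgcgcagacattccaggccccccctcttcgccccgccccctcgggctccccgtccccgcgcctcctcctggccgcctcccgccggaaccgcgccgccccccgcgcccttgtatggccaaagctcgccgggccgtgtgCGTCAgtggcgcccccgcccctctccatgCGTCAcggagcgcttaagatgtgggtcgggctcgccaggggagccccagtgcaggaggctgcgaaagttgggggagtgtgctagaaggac
Klf2: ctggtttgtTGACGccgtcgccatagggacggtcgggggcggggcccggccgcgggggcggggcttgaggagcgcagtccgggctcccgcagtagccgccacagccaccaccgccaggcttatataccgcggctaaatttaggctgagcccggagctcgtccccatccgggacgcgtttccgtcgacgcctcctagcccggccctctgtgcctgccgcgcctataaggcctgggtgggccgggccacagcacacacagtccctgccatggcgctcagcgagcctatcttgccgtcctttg
Egr4: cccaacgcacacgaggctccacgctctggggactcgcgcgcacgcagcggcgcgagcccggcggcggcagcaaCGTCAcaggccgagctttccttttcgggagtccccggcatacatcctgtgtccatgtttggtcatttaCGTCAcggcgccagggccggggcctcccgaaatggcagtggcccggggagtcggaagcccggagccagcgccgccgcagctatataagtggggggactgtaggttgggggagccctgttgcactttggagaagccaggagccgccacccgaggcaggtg
Egr2: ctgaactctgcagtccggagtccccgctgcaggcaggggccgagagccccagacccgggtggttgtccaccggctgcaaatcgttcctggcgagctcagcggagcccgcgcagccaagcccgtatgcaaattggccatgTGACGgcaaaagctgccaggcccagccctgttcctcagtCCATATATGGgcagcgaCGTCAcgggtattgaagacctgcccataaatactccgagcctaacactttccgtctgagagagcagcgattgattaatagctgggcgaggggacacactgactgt
Fosb: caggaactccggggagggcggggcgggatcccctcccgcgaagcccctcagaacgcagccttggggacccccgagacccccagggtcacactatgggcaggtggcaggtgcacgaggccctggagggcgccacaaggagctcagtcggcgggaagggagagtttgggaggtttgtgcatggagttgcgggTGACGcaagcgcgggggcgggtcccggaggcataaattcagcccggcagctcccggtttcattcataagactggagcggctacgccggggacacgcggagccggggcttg
The windows lie at chr12:85473640-85473939 for Fos, chr8:84978699-84978998 (minus strand) for Junb, chr15:101266596-101266895 for Nr4a1, chr8:72318812-72319111 for Klf2, chr6:85513540-85513839 (minus strand) for Egr4, chr10:67537619-67537918 for Egr2 and chr7:19309996-19310295 (minus strand) for Fosb. Nr4a1 holds 4 copies of the core, at 40, 69, 213 and 233 bases before the start, and Fos, Egr4 and Egr2 hold 2 each. For Egr2, the window with the most matches of 5 annotated starts is shown. Promoters of Arc and Sik1 are not shown.

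Of the 20 fast immediate early genes with a window, 15 (75.0%) had TGACG on either strand, compared with 36 of 96 (37.5%) of the genes higher in the high libraries and 23.05% of 27025 genes with a window. The full element TGACGTCA, which contains the core, was found in 10% of the fast genes, 6.25% of the higher genes and 2.03% of all genes. The EGR motif GCGNGGGCG was found in 50%, 19.8% and 6.27% in the same order, and the CArG box in 10%, 4.17% and 1.81%. The AP-1 motif TGANTCA was found in 5%, 8.33% and 8.97%, and the TATA box TATAAA in 10%, 12.5% and 15.7%. The median window was richer in G and C in the fast genes (64.7%) and in the higher genes (63.3%) than over all genes (52.7%), and the part of base composition in these shares was not tested. A match is a stretch of letters and not a bound site.

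Genes that restrain the MAP kinase cascade were higher in the high libraries in 7 of the 11 tested, against 0.675% of all tested genes. The list had 0 lower genes and a median log2 difference of 0.49. Dusp5 (chr19:53603599-53616921 on mm9), a nuclear phosphatase for ERK, had 112, 189 and 285 normalised reads in high libraries, against 69.7, 97.6 and 184 in low libraries. The difference was 1.78-fold (log2 0.83 ± 0.11 SE, adjusted p = 2.96e-05), and it was nearly even over the groups, between 0.70 in wild-type DLS and 0.89 in both Foxp2hum/hum groups. Dusp6, the cytoplasmic ERK phosphatase, had 527, 900 and 1327 in high libraries, against 286, 561 and 907 in low libraries, and was 1.62-fold higher (adjusted p = 3.49e-05). The sets overlapped in 3 of 4 groups for both genes.

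Dusp14 had 891, 1692 and 2458 normalised reads in high libraries, against 444, 935 and 2090 in low libraries, and was 1.66-fold higher (adjusted p = 0.00125). Dusp1, which acts on stress kinases as well as ERK, had 310, 425 and 1077 in high libraries, against 172, 324 and 543 in low libraries, and was 1.5-fold higher (adjusted p = 0.00606). Its difference was log2 1.21 in Foxp2hum/hum DMS and between 0.23 and 0.41 in the other groups. Spry2, a Sprouty inhibitor of receptor tyrosine kinase signalling, was called with a small difference, 950, 1371 and 1630 in high libraries, against 805, 1110 and 1479 in low libraries (1.23-fold, adjusted p = 0.00025). Spry4 was 1.44-fold higher (adjusted p = 0.0418), a call lost in 23 of 44 fits without a library. Errfi1, an inhibitor of the EGF receptor, was 1.27-fold higher (adjusted p = 0.00199), with 1700045H11Rik overlapping it at 222% of its value. Dusp4, Spred1, Spred2 and Spry1 did not pass, and Dusp2 was not tested.

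Among 23 other genes known to respond fast to activity, 7 were higher and 0 lower, with a median of 0.26. Over all tested genes 0.675% were higher. Sgk1 (chr10:21601990-21719709 on mm9), a kinase gene induced by activity and by glucocorticoids, had 1117, 1682 and 2561 normalised reads in high libraries, against 600.5, 873 and 1930 in low libraries. It was 1.78-fold higher (log2 0.83 ± 0.12 SE, adjusted p = 2.96e-05). Its sets were separate in Foxp2hum/hum DLS and overlapped in the other groups. Arl4d, a small GTPase gene, had 339, 692 and 1177 in high libraries, against 226, 415 and 680 in low libraries, and was 1.64-fold higher (adjusted p = 0.000467).

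Trib1, a pseudokinase gene, was 1.55-fold higher (adjusted p = 0.00226), and Tiparp, a poly(ADP-ribose) polymerase gene, 1.48-fold (adjusted p = 0.00314, 4931440P22Rik overlapping at 56.4%). Per1, a clock gene with cAMP response elements, had 657, 1170 and 1657 normalised reads in high libraries, against 445, 792 and 1484 in low libraries (1.44-fold, adjusted p = 0.00808). Midn was 1.43-fold higher (adjusted p = 0.0147), and Rgs2, a regulator of G protein signalling, 1.27-fold (adjusted p = 0.03, lost in 9 of 44 fits without a library). Homer1 (log2 0.13), Ptgs2 (0.09), Gadd45b (-0.01) and Rgs4 (0.01) were among the 16 that did not pass.

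Of 11 late activity-induced genes, most of which encode secreted or synaptic products, 2 were higher. Nptx2, the neuronal pentraxin that gathers AMPA receptors, had 295, 545 and 949 normalised reads in high libraries, against 245, 301 and 704 in low libraries. It was 1.62-fold higher (log2 0.70 ± 0.10 SE, adjusted p = 7.55e-05), and its sets were separate in wild-type DMS. Vgf, the gene of a neuropeptide precursor, had 2092, 3164 and 4386 in high libraries, against 1238, 2542 and 3649 in low libraries (1.34-fold, adjusted p = 0.00873). The opioid genes Penk (log2 0.15) and Pdyn (0.05) did not pass, and Bdnf was not tested. Over the 4 lists of activity-induced genes together, 25 of 69 were higher and 0 lower, and 41 of 69 (59.4%) had higher means in the high set of every group. Over all tested genes these shares were 0.675% and 11.96%. The lists were drawn up with earlier results of these data known.

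**Figure D3:**
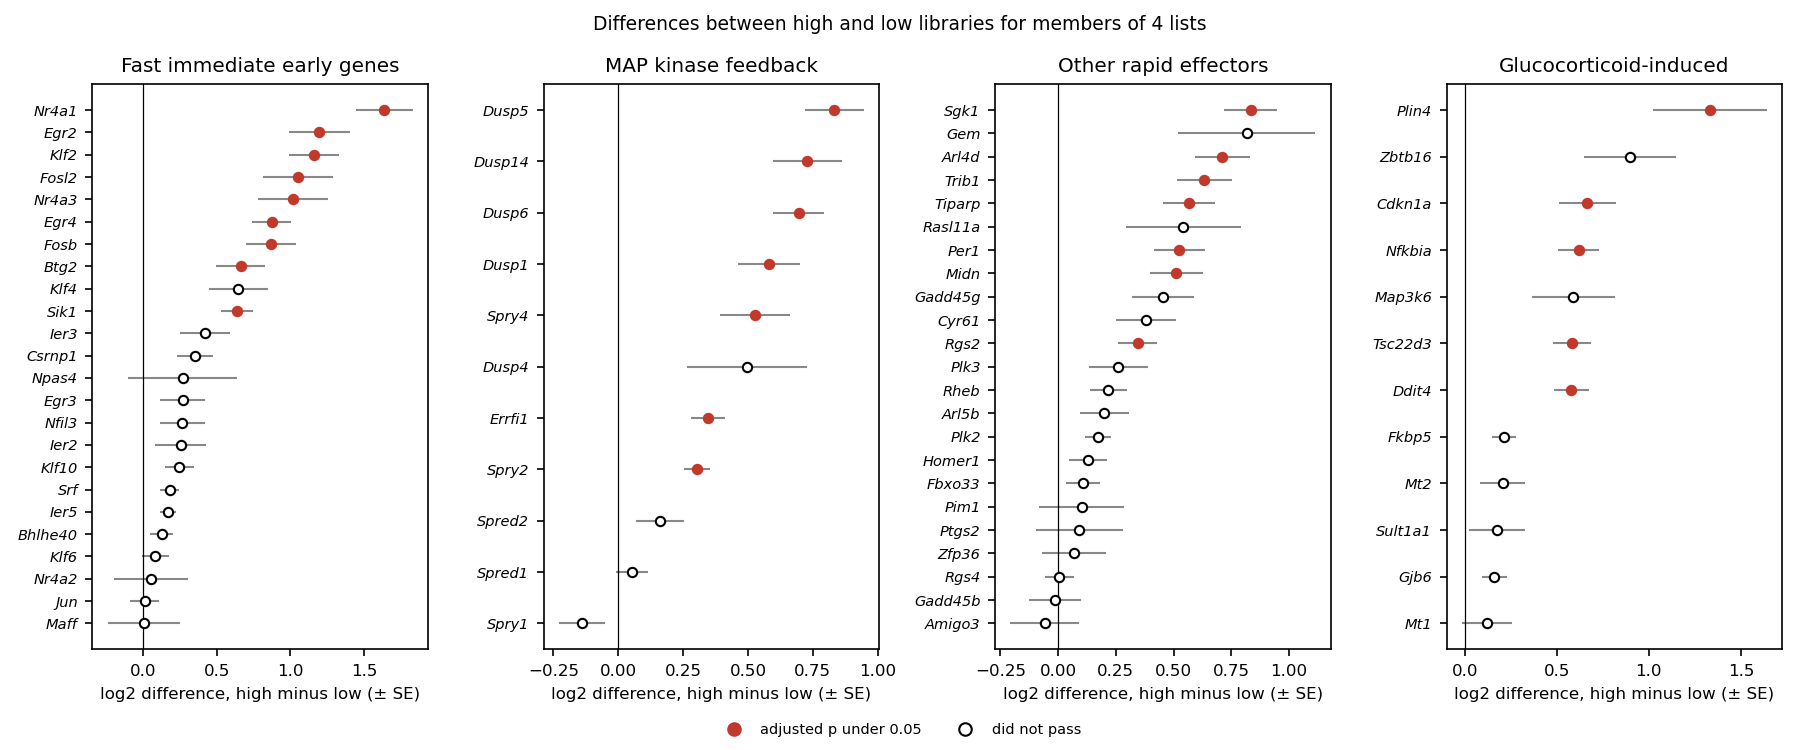
Log2 difference, high minus low, with its SE for the tested members of 4 lists, red where the limma adjusted p was under 0.05 and open where it was not. All 24 fast genes and all 12 glucocorticoid-induced genes lie at or right of 0, while Spry1, Gadd45b and Amigo3 lie left of it.

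Of 22 signalling and transcription factor genes that act upstream of such promoters, including Creb1, Crtc1, Mapk3 and Camk2a, 0 were higher and 1 was lower. Their differences lay between -0.21 and 0.09. Over all tested genes 0.675% were higher and 0.112% lower. The called gene was Elk1, the ETS partner of serum response factor, with 746, 855 and 1007 normalised reads in high libraries, against 783, 968 and 1260 in low libraries. It fell by 0.21 on the log2 scale (0.05 SE, adjusted p = 0.0357, Uxt overlapping at 15.8%), and the call was lost in 15 of 44 fits without a library. Of 12 receptor genes tied to activity genes in striatum, 0 passed in limma and 0 had an unadjusted p under 0.05. The counts by edgeR and by DESeq2 were also 0. Drd1a, the D1 dopamine receptor, had 2700, 3893 and 5053 in high libraries, against 2729, 3672 and 4814 in low libraries (log2 0.10 ± 0.06 SE, adjusted p = 0.56).

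Of 12 genes known to be induced by glucocorticoids, 5 were higher, 0 lower and 7 did not pass, with a median of 0.58. The share higher over all tested genes was 0.675%. By edgeR 3 of the 12 were higher, and by DESeq2 5. Tsc22d3, which encodes the glucocorticoid-induced leucine zipper GILZ, had 669, 1008 and 1423 normalised reads in high libraries, against 439, 629 and 1280 in low libraries (1.5-fold, adjusted p = 0.000869). Ddit4, an inhibitor of mTORC1, had 310, 434 and 569 in high libraries, against 165, 280 and 465.6 in low libraries (1.49-fold, adjusted p = 0.00027). Nfkbia, the inhibitor of NF-κB, was 1.54-fold higher (adjusted p = 0.00101), and Cdkn1a, the cell cycle inhibitor p21, 1.59-fold (adjusted p = 0.0221). Plin4, a lipid droplet gene, was 2.52-fold higher (adjusted p = 0.0214), with Hdgfrp2 overlapping at 571% of its value. In 10 of the 12 the mean was higher in the high set of every group, which held for 11.96% of all tested genes. Fkbp5 (log2 0.21), Zbtb16 (0.90), Mt1 (0.12) and Mt2 (0.21) did not pass, and neither Cdkn1a nor Plin4 passed in edgeR (adjusted p = 0.064 and 0.0699) or with Ttr as a covariate (adjusted p = 0.0608 and 0.0966).

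Of 16 clock genes, 3 were higher and 1 was lower, with a median of -0.01. The shares over all tested genes were 0.675% higher and 0.112% lower. Beside Per1, Cry1 had 233, 385 and 570 normalised reads in high libraries, against 218, 303 and 445 in low libraries (1.28-fold, adjusted p = 0.00511). Arntl, which encodes the clock activator BMAL1, had 361, 659 and 970 in high libraries, against 321, 533 and 894 in low libraries (log2 0.32, adjusted p = 0.03, lost in 3 of 44 fits without a library). Bhlhe41, a clock repressor, had 675, 806 and 1113 in high libraries, against 792, 947 and 1286 in low libraries (log2 -0.22 ± 0.06 SE, adjusted p = 0.0389, lost in 20 of 44). Dbp (log2 -0.24), Per2 (0.29), Per3 (-0.13) and Nr1d1 (-0.02) did not pass. The time of day of tissue collection is not given in the labels.

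Of 14 heat shock and unfolded protein genes, 3 were higher, against 0.675% of all tested genes. Hspa1a, an inducible HSP70 gene, had 29.8, 69.1 and 174 normalised reads in high libraries, against 23.1, 41.8 and 83 in low libraries (1.6-fold, adjusted p = 0.0137), and its near-identical copy Hspa1b did not pass (log2 0.67 ± 0.17 SE, adjusted p = 0.0515), so the split of reads between them is uncertain. Dnajb1 was 1.26-fold higher (adjusted p = 0.00809), and Hspa5, the endoplasmic reticulum chaperone BiP, 1.28-fold (adjusted p = 0.0227). Of 11 hypoxia and glycolysis genes, Slc2a1, the glucose transporter of vessels and glia, was the 1 that passed (1.38-fold, adjusted p = 0.0389, Gm12868 overlapping at 69.9%). Its call was lost in 22 of 44 fits without a library and in edgeR (adjusted p = 0.0528). Vegfa (log2 0.09) and Car9 (-0.42) did not pass.

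**Figure D4:**
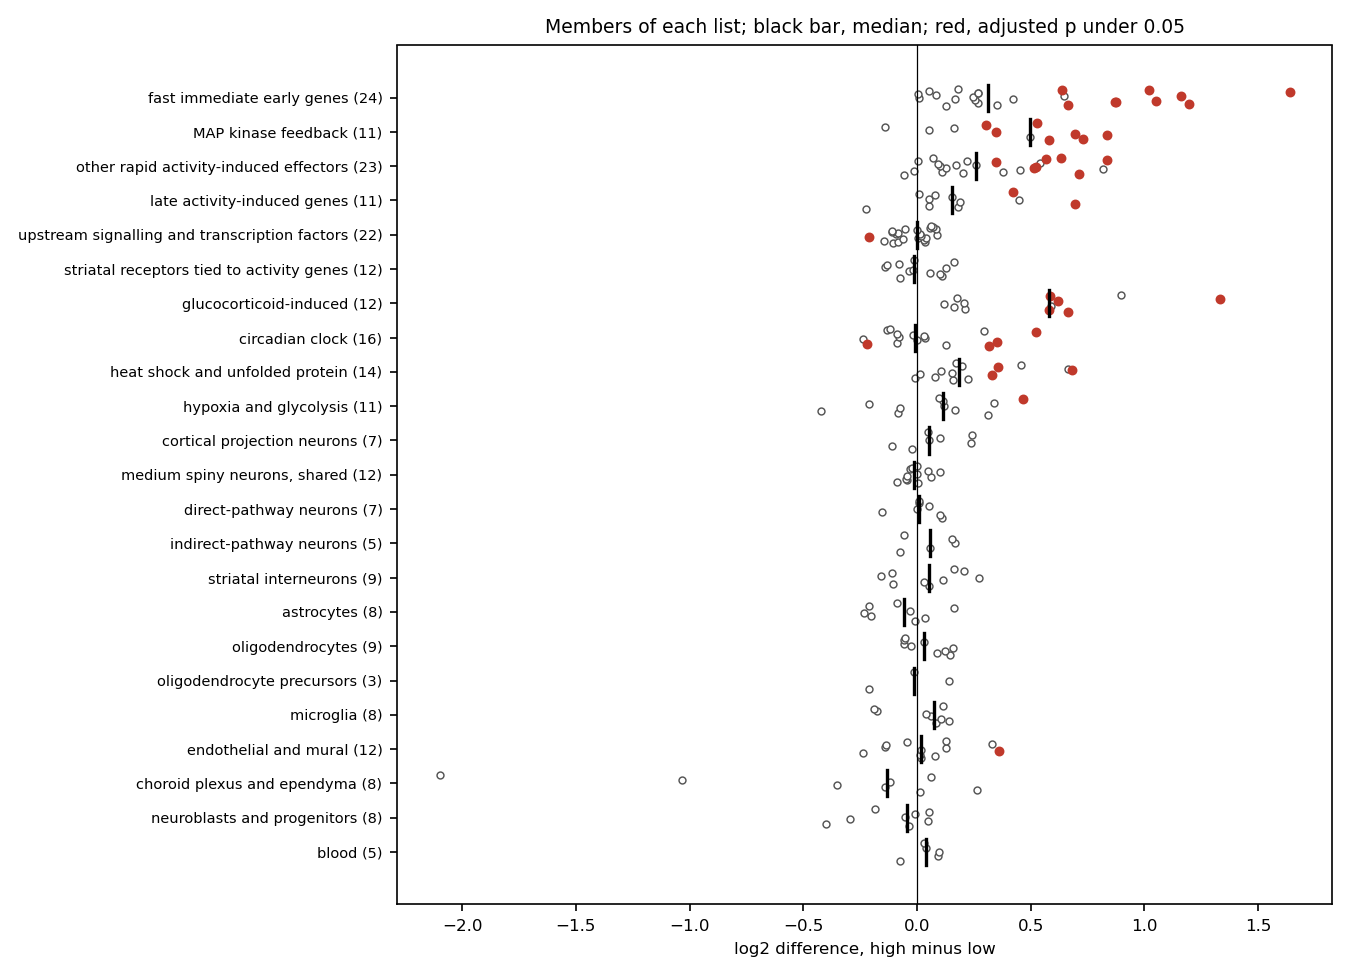
Log2 difference, high minus low, of each tested member of the 10 pathway lists and 13 cell type lists, with the number of members in brackets, the list median as a black bar and called members in red. Over all tested genes 0.787% were called, and the lists were drawn up with earlier results of these data known. The called members were 63.6% of the MAP kinase feedback list, 41.7% of the glucocorticoid-induced, 37.5% of the fast immediate early, 30.4% of the other rapid effector, 25% of the circadian clock, 21.4% of the heat shock and unfolded protein and 18.2% of the late activity-induced list, and 1 of the 13 cell type lists, endothelial and mural, holds a called member.

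Outside the lists, the genes with the smallest p were Slc25a25, Gpr3, Cebpd, Hbegf, Dnajb5 and Rem2. Slc25a25, a mitochondrial ATP-Mg carrier, had 672, 945 and 1234 normalised reads in high libraries, against 438, 630 and 1078 in low libraries (1.47-fold, adjusted p = 6.91e-05, Naif1 overlapping at 10.9%). Gpr3, a receptor that raises cAMP without a ligand, had 65.6, 151 and 235 in high libraries, against 31.5, 65.2 and 236 in low libraries (2.08-fold, adjusted p = 9.92e-05, Cd164l2 overlapping at 76.8%). Cebpd, a C/EBP factor gene, had 32.2, 59.3 and 90.3 in high libraries, against 12.1, 29.3 and 66.7 in low libraries (1.89-fold, adjusted p = 0.000117). Hbegf, the gene of an EGF receptor ligand, differed by almost the same amount in all 4 groups, log2 0.50 to 0.52 (1.43-fold, adjusted p = 0.000131). Dnajb5, a DNAJ cochaperone gene, was 1.48-fold higher (adjusted p = 0.000202) with separate sets in 2 of 4 groups, and Rem2, a GTPase that limits calcium channels, was 1.33-fold higher (adjusted p = 0.000202).

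The named genes that passed as lower had log2 differences between -0.55 and -0.19. Kcnip3, which encodes DREAM, a calcium-sensing repressor known to bind opioid and Fos regulatory DNA, had 1111, 1452 and 1787 normalised reads in high libraries, against 1314, 1592 and 2353 in low libraries (log2 -0.19 ± 0.05 SE, adjusted p = 0.0389, lost in 23 of 44 fits without a library). Zfp182, a zinc finger gene, had 27.2, 59.2 and 109 in high libraries, against 59.5, 88.5 and 125 in low libraries (log2 -0.54 ± 0.12 SE, adjusted p = 0.0147). The mitochondrial lysine tRNA gene mt-Tk had 382, 616 and 1220 in high libraries, against 372, 951 and 1821 in low libraries (log2 -0.55 ± 0.13 SE, adjusted p = 0.0187). Sh3rf1, a scaffold and ubiquitin ligase gene, had the smallest p of the direction (log2 -0.24, adjusted p = 0.0105, Gm10015 overlapping at 40.8%).

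Manea (log2 -0.26), Mthfd1l (-0.35, Gm16074 overlapping at 22.3%), Cab39l (-0.23), Ccng1 (-0.22) and SNORD113.4 (-0.34) were called, also in every fit that left out 1 library, and SNORD113.4 lies within AC152063.3, which has 1857% of its value. Fstl1 (-0.25), Papss2 (-0.36), Slc16a6 (-0.35, Amz2 overlapping at 301%) and Sox12 (-0.38) lost the call in 4 to 26 of those 44 fits. With the score as a continuous variable in place of the sets, 2 of the 15 named lower genes passed, Cab39l and Papss2, against 39 of the 43 named higher genes. With log2 Ttr as a covariate 10 of the 15 passed, without Cab39l (adjusted p = 0.0821), and with the mitochondrial share 11 passed, without Ccng1 (adjusted p = 0.0502). The count of lower genes itself was 34 without library 90, 14 without library 4, 22, 67 or 88, 13 without library 46 and 12 without library 89, against 22 with all. All 154 called genes kept their direction in each of those fits, which share all but 1 of the libraries that chose them.

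All 154 called genes had the same sign when the 2 regions and the 2 genotypes were fitted alone. These fits reuse the libraries that chose the genes, so a shared sign is largely set by the selection and is no replication. No gene passed a test of a difference between regions or genotypes. For the region, 0 of 19556 genes (0%) passed in limma, with 430 at an unadjusted p under 0.05, and 0 in edgeR, with 543. For the genotype, 0 (0%) passed in limma, with 515 unadjusted, and 0 in edgeR, with 498. Arl4d was among the 5 with the smallest p on the Foxp2hum/hum side, with log2 differences of 1.27 and 0.86 in Foxp2hum/hum DMS and DLS, against 0.18 and 0.40 in wild-type DMS and DLS (interaction log2 0.77, adjusted p = 1). Aass, a lysine degradation gene, had 0.75 and 0.98 in Foxp2hum/hum DMS and DLS, against -0.69 and -0.51 in wild-type DMS and DLS (interaction log2 1.46 ± 0.35 SE, adjusted p = 0.946). On the wild-type side were Veph1, Slco1a6, RP23-388I12.2, Ptprd and Itgb2.

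Fitted alone, the Foxp2hum/hum libraries gave 18 higher and 3 lower genes, and the wild-type libraries gave 0 in limma, with 856 genes at an unadjusted p under 0.05. The wild-type sets also stood closer in score, as given above, and held 10 libraries each. With DMS or DLS libraries alone, 4 and 7 genes were higher.

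**Figure D5:**
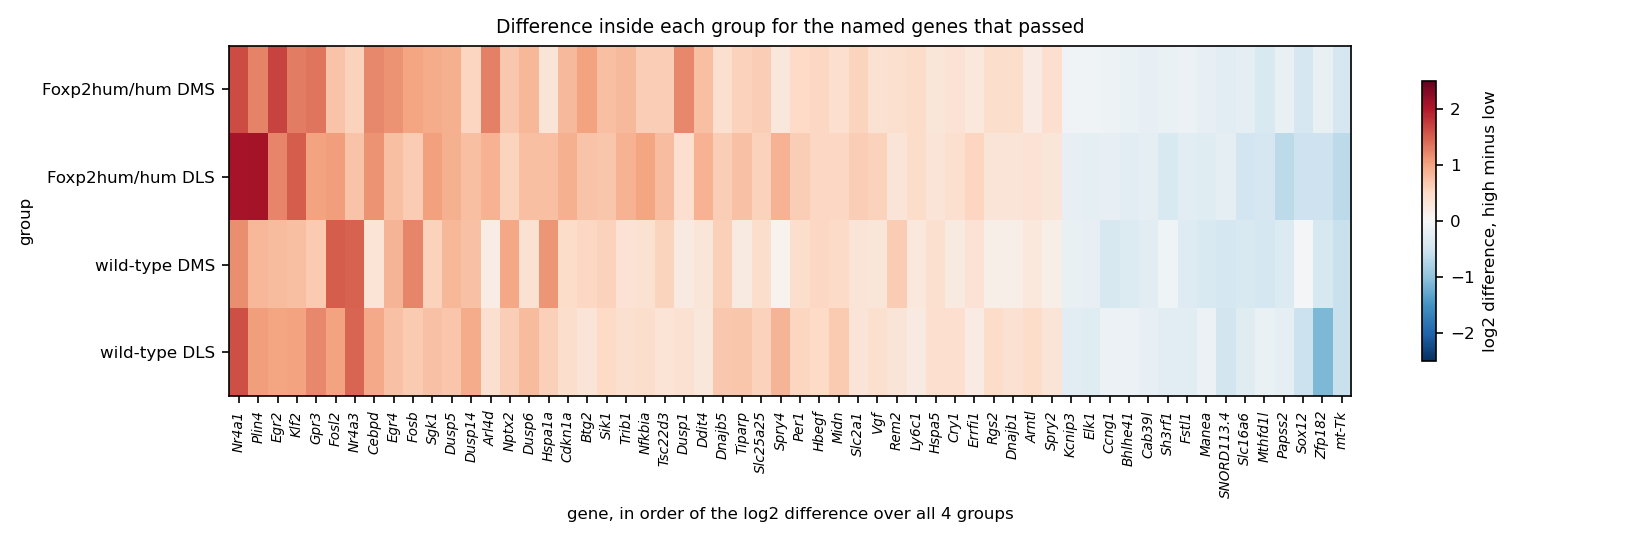
Log2 difference, high minus low, inside each group for the 58 named genes that passed, ordered by the difference over all groups, red where higher and blue where lower in the high libraries. The genes to the left, from Nr4a1 on, are red in all 4 rows. With each genotype fitted alone, the difference was further from 0 in Foxp2hum/hum than in wild-type for 32 of the 43 higher genes and for 5 of the 15 lower genes. The sets also lay further apart in score in Foxp2hum/hum (1.56 and 1.31) than in wild-type (0.55 and 0.76). The part of that gap in the count was not tested, and 0 genes passed the test between genotypes.

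Over the 13 cell type lists, 1 of 101 tested markers passed in limma, close to the 0.787% of all tested genes, and edgeR and DESeq2 each called 1. In limma, 15 of the 101 had an unadjusted p under 0.05, against 1992 of all 19556 genes. Of 12 shared medium spiny neuron markers, 7 direct-pathway and 5 indirect-pathway markers, 0 passed, and the list medians lay between -0.01 and 0.06. Astrocyte (median -0.06), oligodendrocyte (0.03), microglia (0.07), interneuron (0.05), oligodendrocyte precursor (-0.01), neuroblast (-0.04), blood (0.04), choroid plexus and ependyma (-0.13) and cortical projection neuron markers (0.05) had 0 called members. Summed cortical markers lay between 9159 and 41288 normalised reads in high libraries and between 8603 and 42534 in low libraries, and the ranges of both sets overlapped. Of 12 endothelial and mural markers, Ly6c1 was 1.28-fold higher (adjusted p = 0.0243), a call lost once log2 Ttr entered the fit (adjusted p = 0.126). Cux2, Lamp5 and Gpr52 were not matched, and Neurod1, Neurod2, Kcne2 and Otx2 were below the filter. No marker list had a defining marker at 0 in all libraries of a set.

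The choroid plexus transcript Ttr, which comes from tissue lining the ventricle, went the other way. It had 0, 1.89 and 1115 normalised reads at the lowest, median and highest high library, against 0, 27.3 and 9582 in low libraries. The log2 value averaged 3.26 ± 3.49 in high and 5.36 ± 4.29 in low libraries (SD, n = 22 each), and was lower in the high set in 4 of 4 groups. A permutation test within groups (two-sided, 100000 resamples) gave p = 0.0177, or 0.106 adjusted over 6 technical measures, and limma adjusted p = 0.281. The list that holds Ttr was mixed. Of its 8 tested markers, 3 had a log2 difference above 0, with Clic6 the highest at 0.26. The summed choroid plexus and ependyma markers lay between 188 and 2446 in high libraries and between 159 and 10928 in low libraries. Their medians were 494 in high and 465 in low libraries, so the sum did not follow Ttr. With log2 Ttr as a covariate 93 genes were higher, and all 9 called fast immediate early genes were still called.

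The share of reads from mitochondrially encoded genes was 21.4% ± 3.86 in high and 23.6% ± 3.69 in low libraries (SD, n = 22 each; permutation p = 0.0456, adjusted p = 0.137), and 1 of these 37 genes, mt-Tk, was lower (3 by DESeq2), with a list median of -0.21. The call of mt-Tk was lost with that share as a covariate (log2 -0.37, adjusted p = 0.0507) and with the continuous score (adjusted p = 0.299). With that share as a covariate, 161 genes were higher and 68 lower, and 7 of the fast genes were called. Total reads (23.3 M in high and 24.1 M in low libraries), genes detected (23454 in high and 23599 in low libraries) and the share of ribosomal protein genes (1.251% in high and 1.175% in low libraries) had adjusted p between 0.509 and 0.734. The part that ventricular tissue, RNA quality or the 3 flow cells had in the differences was not tested beyond these fits.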

How the data were processed

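The authors deposited 1 table of normalised signal values per gene and library, with 25259 genes and 46 columns whose header gives the group and a library number. Per the submitters' processing notes, reads were aligned with TopHat 1.4.1 to mm9 and handled with bedtools and DESeq. The signal values, multiplied by a size factor per library, gave whole reads within 0.01 for 100% of the values, so total reads per library are known, and edgeR on these reads called 130 higher and 23 lower genes. The precision of genes with few reads is limited by counting error as well as by the spread between libraries, and the 2 were not separated.

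Values were transformed to log2(value + 1), genes with a mean of at least 10 were kept, and limma 3.58.1 with a mean-variance trend fitted high against low with group as a block, adjusted by Benjamini-Hochberg. Folds are on this scale and understate the change of low genes. The members of the sets, the lists and the tests were chosen with earlier results of these data known. Lists carry counts and medians and no test. Named were the 15 called genes per direction with the smallest p and a mean of at least 50 (clone names left out), every fast immediate early gene, up to 4 genes and all called genes of each other list, and 5 genes per direction for each interaction. Alternatives were edgeR 4.0.16 and DESeq2 1.42.0 on the recovered reads, other pseudocounts, filters, scalings, weights, covariates, subsets, the score as a continuous variable and leaving out each library. Technical measures were compared by permutation within groups.

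Counts seem to include introns and both strands, so overlapping genes (GENCODE M1, 25023 identifiers matched) with at least 10% of a gene's mean value are given beside it, the largest 1 per gene. Promoter sequences are RefSeq's on GRCm38.p6. Library numbers come from the table's header, and no source used here gives the flow cell of each library.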

Additional observations from a re-analysis of the deposited data

Results flagged for a closer look

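Within the high or low libraries of 1 group, 11 of 168 sets of values had a highest or lowest library far from the rest by Dixon's criterion, where chance flags about 1 in 20. Among sequencing measures, library 22 of the Foxp2hum/hum DLS high set had 30.5 M reads, where the others had at most 24.1 M reads. The size factor was 0.539 for library 72 of the wild-type DMS high set, 1.64 for library 88 of the wild-type DMS low set and 1.81 for library 44 of the wild-type DLS low set. Log2 Ttr was 6.33 in library 22, where the others of its set reached at most 2.31, and 13.2 in library 18 of the wild-type DMS low set, where the others reached at most 6.24.

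Among named genes, Dusp6 had 1140 normalised reads in library 26 of the wild-type DLS high set, where the others had at most 963. Gpr3 had 236 in library 80 of the Foxp2hum/hum DMS low set, where the others had at most 61.6, and this library's score lay just under the dividing line. Slc25a25 had 729 and Mthfd1l 57.5 in library 72, where the others of the set had at least 1085 and 85.7. Manea had 596 in library 41 of the Foxp2hum/hum DMS high set, where the others had at most 539.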

How the results depend on the processing

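Against 132 higher and 22 lower genes and 9 called fast immediate early genes, array weights gave 382 higher and 174 lower, DESeq2 54 lower, the mitochondrial share as a covariate 68 lower, the continuous score 6 lower, and no group block 77 higher and 8 lower. DMS alone gave 4 higher, 0 lower and 3 fast genes, DLS alone 7, 0 and 2, Foxp2hum/hum alone 18, 3 and 3, and Foxp2hum/hum DMS alone 1, 0 and 0. Foxp2hum/hum DLS alone, wild-type alone, wild-type DMS alone and wild-type DLS alone gave 0, 0 and 0 in limma, the one tool run there, with 914, 856, 497 and 566 genes at an unadjusted p under 0.05. These subsets hold fewer libraries, and the cause of the other shifts was not tested. Without each library in turn, 101 to 157 genes were higher, 12 to 34 lower and 8 to 9 fast genes called. The other settings (edgeR, pseudocounts of 0.5 and 5, no filter, a mean of at least 50, quantile normalisation, Ttr or total reads as a covariate) gave 93 to 146 higher and 18 to 23 lower, except DESeq2 with 172 higher. Of the 154 called genes, 153 kept their sign in Foxp2hum/hum DMS alone, 151 in wild-type DMS alone, all 146 still tested at a mean of at least 50, and all 154 in every other fit. All these fits reuse libraries that chose the genes, so the kept signs are no replication. Of the 58 called genes named, edgeR kept 52, DESeq2 56 and the continuous score 41. No paired analysis was possible because the labels give no replicate numbers that groups share.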

Other observations

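Called genes outside the lists, picked after their values were seen, included Rasd1, Camk1g and Nab2. Rasd1, the dexamethasone-induced RAS gene, had 21.8, 31.3 and 79.3 normalised reads at the lowest, median and highest high library, against 3.47, 19.4 and 58.8 in low libraries (log2 0.81 ± 0.20 SE, limma adjusted p = 0.0277). Camk1g, a calcium-calmodulin kinase gene, differed by log2 0.57 (adjusted p = 0.00375), and Nab2, a corepressor of EGR factors, by 0.31 (adjusted p = 0.0034, Gm16229 overlapping at 28.3%). Rela (log2 0.25) and Phlda1 (0.34) were higher too.

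Further called genes, also picked after their values were seen and standing for no list, differed by small amounts. Srp68 (log2 0.27, adjusted p = 0.00101), Herpud1 (0.26, Gm15890 overlapping at 11.7%), Pdia6 (0.25), Dnajb11 (0.23) and Ddost (0.15) act in or at the endoplasmic reticulum. Slc25a3, the mitochondrial phosphate carrier, had 5174, 6039 and 6562 in high libraries, against 3372, 5055 and 6058 in low libraries (log2 0.25, adjusted p = 0.00603), and Ckb, brain creatine kinase, had the same log2 difference of 0.25 (adjusted p = 0.00388). Aldoa (log2 0.19) and Ndufa9 (0.25) were called as well. The calls of Dnajb11, Ddost, Aldoa and Ndufa9 were lost in 15 to 29 of the 44 fits without a library.

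Among lower genes outside the lists, Pkia, the protein kinase A inhibitor, had 1437, 1924 and 2712 in high libraries, against 1633, 2329 and 2912 in low libraries (log2 -0.23, adjusted p = 0.0417, lost in 24 of 44 fits). Trpv3 had the lowest log2 value of the called genes (-1.25, adjusted p = 0.0485), at a median of 5.41 in high and 13.9 in low libraries, and its call was lost in 34 of 44 fits.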
